A study of Homo sapiens with 2 samples.

Results

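The genes described here are 10 heat shock protein chaperones of human cells, namely HSP90AA1, HSP90AB1 and HSP90B1, the HSP70 family members HSPA8, HSPA5 and HSPA9, the HSP110 proteins HSPA4 and HSPH1, and the mitochondrial chaperonin pair HSPD1 and HSPE1. They were chosen by name. Each isoform locus of the deposited long-read annotation was given the GENCODE gene with which it shared the most exonic bases on the same strand, and every edited position of a locus named for a member was kept. A locus was found for 9 of the 10 members, and 8 of them had an edited position, out of 12178 loci with an edited position and 12869 loci with an isoform model in the whole series. HSP90B1 had a locus with 41 isoforms and no edited position in either library. HSPE1 had no locus of its own, because the single locus over it shared more bases with the neighbouring gene MOB4.

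Molecular chaperones bind unfolded or partly folded proteins and let them reach or regain their native shape. HSP70 proteins bind short hydrophobic stretches in cycles of ATP hydrolysis, HSP110 proteins exchange their nucleotide, HSP90 proteins act later on kinases and receptors, and HSPD1 with its lid HSPE1 encloses proteins inside the mitochondrial matrix. Their messenger RNAs are abundant in growing cell lines, which makes them useful for a method that reads out RNA binding from rare conversions in sequenced reads.

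The study marked the RNA targets of RBFOX2, a splicing regulator that binds UGCAUG and, less strictly, GCAUG, inside fixed cells by in situ STAMP. Fixed cells received an antibody against RBFOX2 and then APOBEC1, a cytidine deaminase, fused to a nanobody that recognises this antibody, so that cytosines near RBFOX2 are converted to uracil. The cells were HEK293T according to the sample titles and HEK293XT according to the cell line label, an immortalized human embryonic kidney line with no treatment stated. There were 2 PacBio long-read libraries, an RBFOX2 library with the antibody and an enzyme-only library with the fusion but without the RBFOX2 antibody, and both carry the enzyme.

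With 1 library per group there was no replicate, no test was made, and each difference is one between these 2 libraries. All intervals are exact Clopper-Pearson 95% intervals that cover counting error only, since reads of PCR-amplified cDNA are not independent molecules. The RBFOX2 library listed 121930 edited positions, the enzyme-only library 103684, and 12573 of them were in both and are called shared. The median number of reads of a listed gene was 96 and 87, and the median ratio of gene reads between the libraries was 1.10 over 8203 loci. A position was listed only if its converted reads exceeded 0.2% of the reads of its gene, so the fewest converted reads that could be listed rose with the gene's reads. That number was 1 for a gene under 500 reads and 2 just above it.

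The positions that carry the results are shown first, each as 25 bases of the sense strand of hg38 with the edited cytosine in the centre. Capitals mark the central cytosine, any other cytosine listed in the RBFOX2 library, and any GCATG, the DNA form of GCAUG. The HSP90AA1 windows hold the position with the most converted reads of all members, the cytosine directly beside the only 3'UTR UGCAUG of the gene, and the next strongest positions away from these motifs. The HSPD1 and HSP90AB1 windows hold positions listed in both libraries, the HSPA9 windows a cytosine beside a UGCAUG and the strongest position of that gene, the HSPH1 window a dense group after the stop codon, the HSPA8 window a coding pair, and the HSPA4 window the strongest position of the enzyme-only library in that gene.
HSP90AA1 3'UTR, chr14:102081580-102081604, minus strand: GCATGaCaaCtaCtttaaggggaag
HSP90AA1 3'UTR, chr14:102081269-102081293, minus strand: tagttgacaattCtGCATGtactag
HSP90AA1 3'UTR, chr14:102081427-102081451, minus strand: aCatgatgttaaCtttgtggtctaa
HSP90AA1 3'UTR, chr14:102081661-102081685, minus strand: ttcagtactCtaCaattcctctgat
HSPD1 3'UTR and stop codon, chr2:197487033-197487057, minus strand: gGCATGttCtaaCtCctagactagt
HSPA9 3'UTR, chr5:138555794-138555818, minus strand: cctgtcatttttCagctGCATGtaa
HSPA9 3'UTR, chr5:138555912-138555936, minus strand: ttttgcagtattCtatatataattt
HSPH1 3'UTR, chr13:31137242-31137266, minus strand: tatgtgaCtCtaCataacataCtga
HSP90AB1 3'UTR, chr6:44253774-44253798, plus strand: ctctaCtcttgaCagcaggattgga
HSPA8 coding exon, chr11:123060160-123060184, minus strand: ggtCtcaatgtaCttagaattatta
HSPA4 coding exon, chr5:133096226-133096250, plus strand: gctcaacttgtaCattgaaaatgag

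Across the members, 97 positions were listed in the RBFOX2 library against 93 in the enzyme-only library, 181 distinct positions in all, with 9 shared. The 2 totals were close, but the genes behind them differed. HSP90AA1, HSPA9 and HSPH1 held 18, 32 and 21 of the 88 unshared positions of the RBFOX2 library, whereas HSPA4 alone held 71 of the 84 unshared positions of the enzyme-only library. Without HSPA4 the members had 83 unshared positions in the RBFOX2 library against 13 in the enzyme-only library. The plot of unshared positions by gene shows this split.

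**Figure D1:**
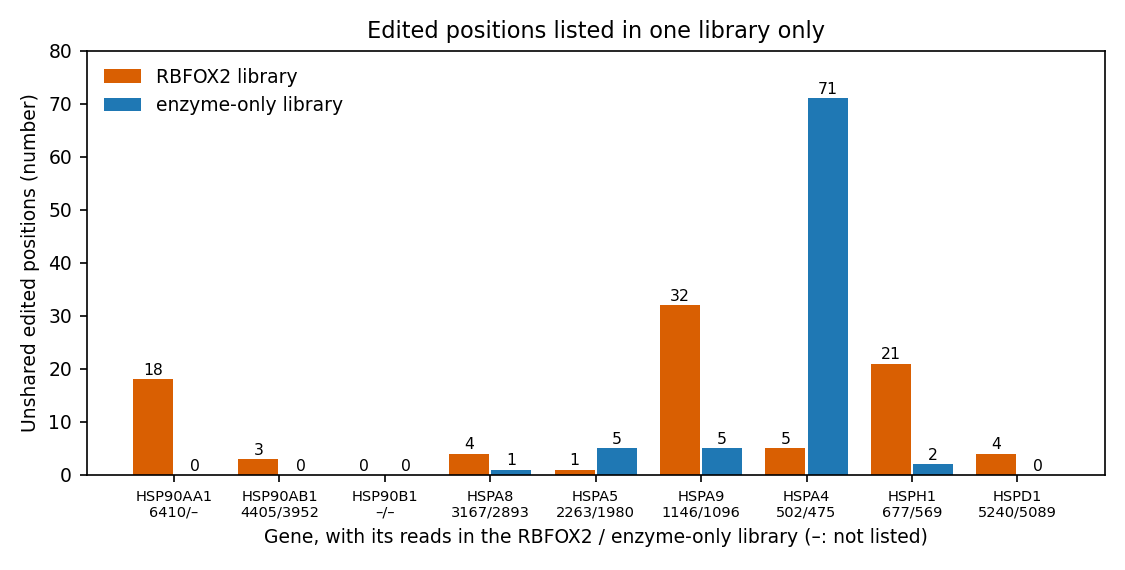
Unshared edited positions (vertical axis, number) for each of the 9 chaperone genes with a locus, in the RBFOX2 library (orange bars) and the enzyme-only library (blue bars), with the gene's reads in each library under its name. The RBFOX2 bars are highest for HSPA9, HSPH1 and HSP90AA1, and the enzyme-only bar of HSPA4 reaches 71.

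The ratio of unshared positions was expressed as a log2 value with a pseudocount of 0.5, scaled by all unshared positions of each library. It was over 1, meaning more than 2-fold higher in the RBFOX2 library, for 6 of the 8 members and under -1 for 2. Of 890 genes of at least 500 reads in each library that listed them, 33.1% were over 1 and 20.1% under -1, and the median was 0.36. Of those genes 7 were members, with a median of 2.54, and over all 8 members the median was 2.42. The member left out was HSPA4, with 475 reads in the enzyme-only library, which had the lowest ratio of the 8. HSP90AA1, HSP90AB1 and HSPD1 had no enzyme-only position, so their fitted ratios depend on the pseudocount. With every 0 set to a floor of 3 positions over the library, 4 of the 8 members were over 1 and 2 under -1. Of the 7 members in the 890 genes, 4 were over 1 and 1 under -1, beside 265 and 158 of all 890. The median at this floor was 0.94 for the 8, 1.74 for the 7 and 0.32 over all 890. Among the members with at least 20 unshared positions, HSPA9 and HSPH1 were over 1 and HSPA4 was under -1, where 16.8% of the 3604 genes with that many positions were over 1 and 14.6% under -1. The intervals of HSPA9 and HSPH1 lay above 0, as for 15.2% of these genes, and that of HSPA4 below 0, as for 14.5%. In the 890 genes of many reads the interval lay above 0 for 13.3% and below 0 for 5.17%. Of the 7 members there, which leave out HSPA4, it lay above 0 for HSP90AA1, HSPA9 and HSPH1 and below 0 for none. When the larger of the 2 listing minima of each gene was applied to both libraries, called the common minimum, HSPA9 and HSPH1 were the members with 20 positions or more and both were over 1, as were 15.8% of 3471 genes, with 12.9% under -1.

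HSP90AA1, the stress-inducible cytosolic HSP90, lies on chromosome 14 (hg38, locus 102080739-102087713, minus strand). It had 6410 reads and 18 positions in the RBFOX2 library and was not in the enzyme-only table at all. Its number of reads there is therefore unknown. Of the 974 genes with at least 500 reads in the RBFOX2 library, 61 (6.26%) were likewise not listed in the enzyme-only library. With the 0 set to the floor of 3 positions the log2 ratio of HSP90AA1 was 2.32, which leaves out the counting error of the 18, and the exact interval began at 1.87 and had no upper bound.

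All 18 HSP90AA1 positions lay in the last exon, in the 3'UTR, from 19 to 473 nt after the stop codon. The coding sequence, with 398 cytosines, had 0 listed positions, which allows a share of up to 0.923% by the exact interval. Converted reads at the 18 positions ran from 13 to 41 with a median of 16.5, where 13 was the fewest that could be listed. The strongest was chr14:102081592, 120 nt after the stop codon, with 41 converted reads of 6410 (0.640%, interval 0.459 to 0.867%). It was followed by chr14:102081439 with 34 reads (0.530%, interval 0.368 to 0.740%) and chr14:102081673 with 28 reads (0.437%, interval 0.290 to 0.631%). The lower bounds of these positions lay above the 0.2% limit, as did that of chr14:102081467 with 22 reads. Over the 8 genes the lower bound passed the limit at 6 of the 88 unshared RBFOX2 positions and at none of the 84 enzyme-only positions, and over all genes of at least 500 reads it did so at 4.44% of 8649 RBFOX2 and 0.591% of 4737 enzyme-only positions. Of the 6, 4 were in HSP90AA1, which the enzyme-only library does not list. HSPA4 held 71 of the 84, with at most 3 converted reads each, too few to pass. The 2 counts thus rest on different genes.

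The 455 nt that span the HSP90AA1 positions hold 70 cytosines, of which 18 (25.7%) were listed. All 18 had an A or a U on their 5' side, where APOBEC1 prefers these bases. Of the 48 cytosines in the span with such a neighbour, 18 were listed, and of the 22 with a G or a C there, none was. A window of 500 nt held all 18, and 29 of 937 genes (3.09%) with at least 500 reads had as many RBFOX2 positions in such a window, while the median gene had 4.

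HSPA9, the mitochondrial HSP70 that helps to draw proteins through the inner membrane (chromosome 5, minus strand), had 1146 reads in the RBFOX2 library, 1096 in the enzyme-only library and the same listing minimum of 3 converted reads in both. Its RBFOX2 library held 32 unshared positions against 5 in the enzyme-only library, with 3 shared. The log2 ratio was 2.30 (interval 1.04 to 4.13).

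Of the 32 HSPA9 positions, 17 lay in the 3'UTR and 15 in the coding sequence. The listed 3'UTR positions of the RBFOX2 library, shared ones included, fell between 81 and 650 nt after the stop codon and took 19 of the 105 cytosines there. The strongest was chr5:138555924 with 8 of 1146 reads (0.698%, interval 0.302 to 1.37%), followed by chr5:138555772 and chr5:138555855 with 6 reads each (0.524%). Its 3 strongest enzyme-only positions were chr5:138555949 in the 3'UTR with 5 of 1096 reads (0.456%), and chr5:138555403 and chr5:138559915 with 4 reads each (0.365%). None of these was listed in the RBFOX2 library. The closest pair of 3'UTR positions, the neighbouring cytosines chr5:138555403 and chr5:138555406, was listed in different libraries. The other library could hold up to 2 unlisted converted reads at each.

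HSPH1, an HSP110 protein that serves HSP70 as a nucleotide exchange factor (chromosome 13, minus strand), had 677 RBFOX2 and 569 enzyme-only reads, with a listing minimum of 2 converted reads in both. It had 21 unshared positions against 2, and 1 shared. Its log2 ratio was 2.84 (interval 1.10 to 6.27). Of the 21, 15 were in the 3'UTR and 6 in the coding sequence. The 3'UTR positions, with the shared one, numbered 16 of 95 cytosines between 16 and 644 nt after the stop codon, and 15 of the 16 had an A or a U on the 5' side. The strongest unshared position was chr13:31137259 with 5 of 677 reads (0.739%, interval 0.240 to 1.72%), followed by chr13:31137254 and chr13:31136885 with 4 reads each (0.591%). The shared position chr13:31137245 had 5 converted reads (0.739%) in one library and 3 of 569 (0.527%) in the other, enzyme-only one, and these intervals overlapped.

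**Figure D2:**
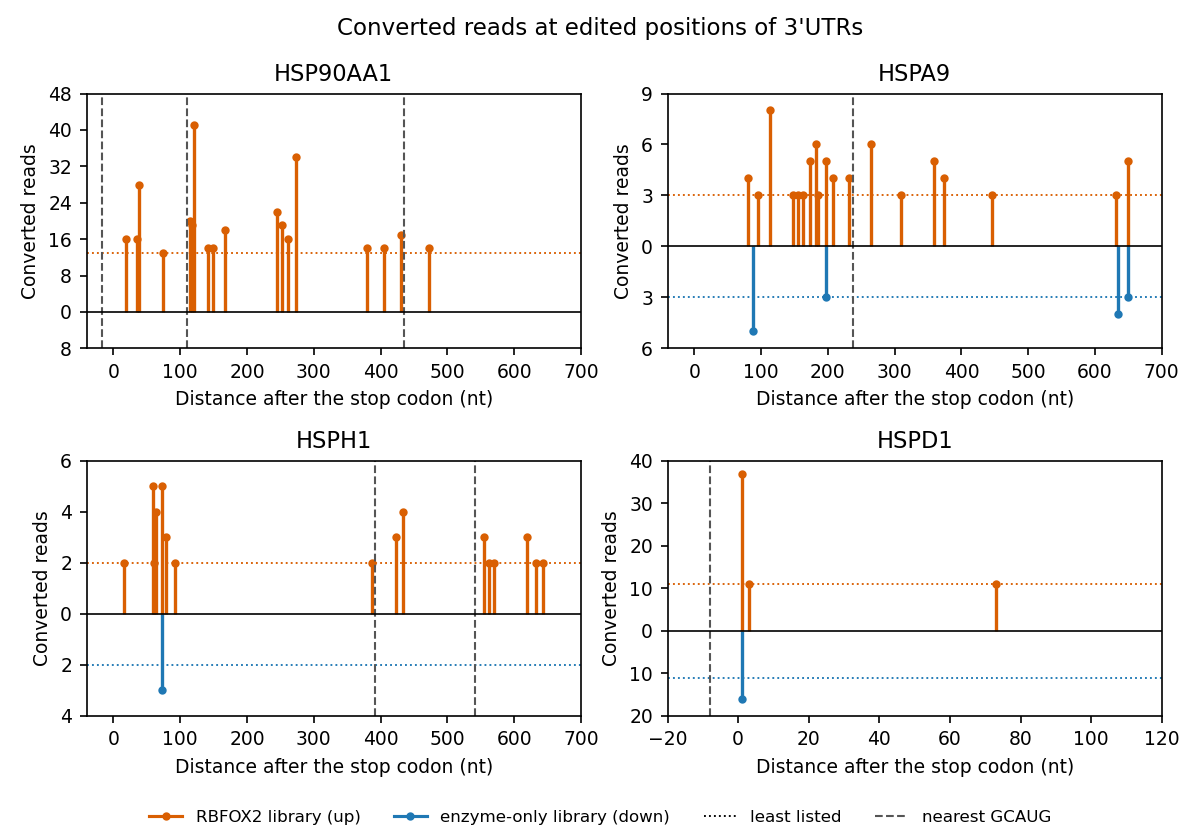
Converted reads (vertical axis) at each listed 3'UTR position against its distance after the stop codon (horizontal axis, nt) for HSP90AA1, HSPA9, HSPH1 and HSPD1. RBFOX2 library positions point up in orange and enzyme-only positions point down in blue, dotted lines give the fewest converted reads that could be listed, and dashed lines give the centre of the GCAUG nearest to a position. HSP90AA1 has orange positions from 19 to 473 nt and no blue one, and HSPD1 has a shared position at 1 nt with 37 converted reads up and 16 down.

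HSPD1, the mitochondrial chaperonin HSP60 (chromosome 2, minus strand), had 5240 and 5089 reads in the RBFOX2 and enzyme-only libraries and a listing minimum of 11 in both. Its 4 unshared positions were all in the RBFOX2 library. Against the floor of 3 positions it was at least 1.11-fold higher in the RBFOX2 library, without the counting error of the 4, and the exact interval of its log2 ratio began at -0.86 and had no upper bound, so it included 0. Its strongest position was shared. The cytosine at chr2:197487045, the base that follows the stop codon, had 37 of 5240 converted reads in the RBFOX2 library (0.706%, interval 0.498 to 0.972%) and 16 of 5089 in the enzyme-only library (0.314%, interval 0.180 to 0.510%). These intervals overlapped slightly. The last coding cytosine, chr2:197487049, where a change would be synonymous and which lies 3 nt from the GCAUG upstream of the stop codon, had 17 reads in the RBFOX2 library (0.324%), and chr2:197487043 had 11 (0.210%).

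HSP90AB1, the constitutive cytosolic HSP90 (chromosome 6, plus strand), had 4405 and 3952 reads in the RBFOX2 and enzyme-only libraries. Its 3 unshared positions were all in the RBFOX2 library, with a log2 ratio of 2.54 whose interval began at -1.54 and had no upper bound. All were in the 3'UTR, at chr6:44253717 and chr6:44253839 with 13 reads each (0.295%) and at chr6:44253779 with 11 reads (0.250%). The shared position chr6:44253786 had 15 reads (0.341%) and 13 reads (0.329%), nearly the same percentage in both libraries.

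HSPA8, the constitutive cytosolic HSP70 (chromosome 11, minus strand), had 3167 and 2893 reads in the RBFOX2 and enzyme-only libraries. It had 4 unshared positions against 1 and a log2 ratio of 1.32 (interval -1.60 to 7.36). The strongest were the coding positions chr11:123060172 with 10 reads (0.316%) and chr11:123060181 with 9 reads (0.284%), both in exon 4, and chr11:123057605 in the 3'UTR with 9 reads. The enzyme-only position chr11:123060233, in the same exon, had 6 reads (0.207%), 1 fewer than the RBFOX2 library could list. HSPA5, the HSP70 of the endoplasmic reticulum also called BiP (chromosome 9, minus strand), had 2263 and 1980 reads in the RBFOX2 and enzyme-only libraries, with 1 unshared position against 5 and a log2 ratio of -2.14 (interval -8.15 to 0.57). Its RBFOX2 position chr9:125236336 in the 3'UTR had 7 reads (0.309%), and the strongest enzyme-only position chr9:125236552 had 5 reads (0.253%). The shared coding position chr9:125236629 had 6 reads in each library. Of the 5 enzyme-only positions of HSPA5, 4 had 4 reads, where the listing minimum was 4 in the enzyme-only library and 5 in the RBFOX2 library. At a common minimum of 5, HSPA5 had 1 unshared position in each library.

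HSPA4, an HSP110 protein closely related to HSPH1 (chromosome 5, plus strand), went the other way. It had 5 unshared RBFOX2 positions and 71 unshared enzyme-only positions, with 2 shared and a log2 ratio of -3.96 (interval -5.76 to -2.80). Its reads numbered 502 (RBFOX2) and 475 (enzyme-only), on either side of the 500 reads at which the listing minimum goes from 1 converted read to 2. Of its 73 positions in the enzyme-only library, 61 had a single converted read. At the common minimum, 2 converted reads for this gene, it had 5 unshared positions against 10 and a log2 ratio of -1.28 (interval -3.25 to 0.34), so the interval included 0. With 2 or more converted reads required in every gene the counts were the same and only the scaling differed, which gave -1.80 (interval -3.76 to -0.18), below 0. Of the 115 genes with at least 500 reads in the RBFOX2 library, fewer in the enzyme-only library and at least 20 unshared positions, 114 (99.1%) were under -1.

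The HSPA4 positions were spread over the transcript. Of the 71 enzyme-only positions, 56 lay in the coding sequence, 9 in the 5'UTR, 3 in the 3'UTR and 3 in introns. The strongest was chr5:133096238 with 3 of 475 reads (0.632%), and chr5:133064982 and chr5:133070440 had 2 (0.421%). In the RBFOX2 library the strongest unshared position was chr5:133104346 with 3 of 502 reads (0.598%), and chr5:133076755 and chr5:133088536 had 2 (0.398%). The shared positions chr5:133070464 and chr5:133104393 had 2 and 3 RBFOX2 reads and 2 enzyme-only reads each. Each of these values rests on at most 3 converted reads, and differences between them were not detectable at this depth.

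**Figure D3:**
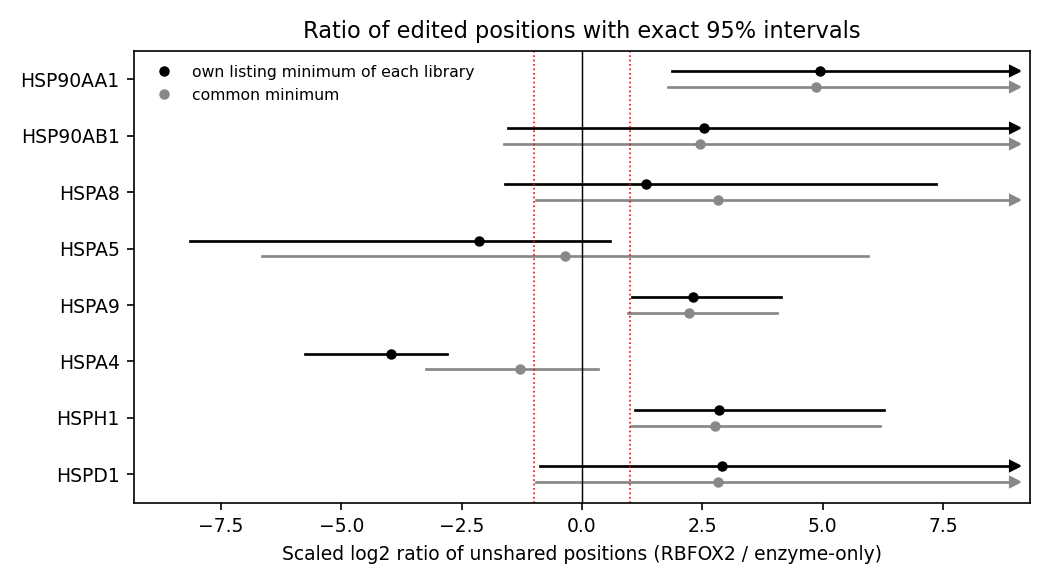
Scaled log2 ratio of unshared positions, RBFOX2 over enzyme-only (horizontal axis), for the 8 chaperone genes with a position, with exact 95% intervals as lines and arrows where an interval has no upper bound. Black uses each library's own listing minimum and grey a common minimum of converted reads, under which HSPA4 moves from -3.96 to -1.28 while HSPA9 stays above 2.

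**Figure D4:**
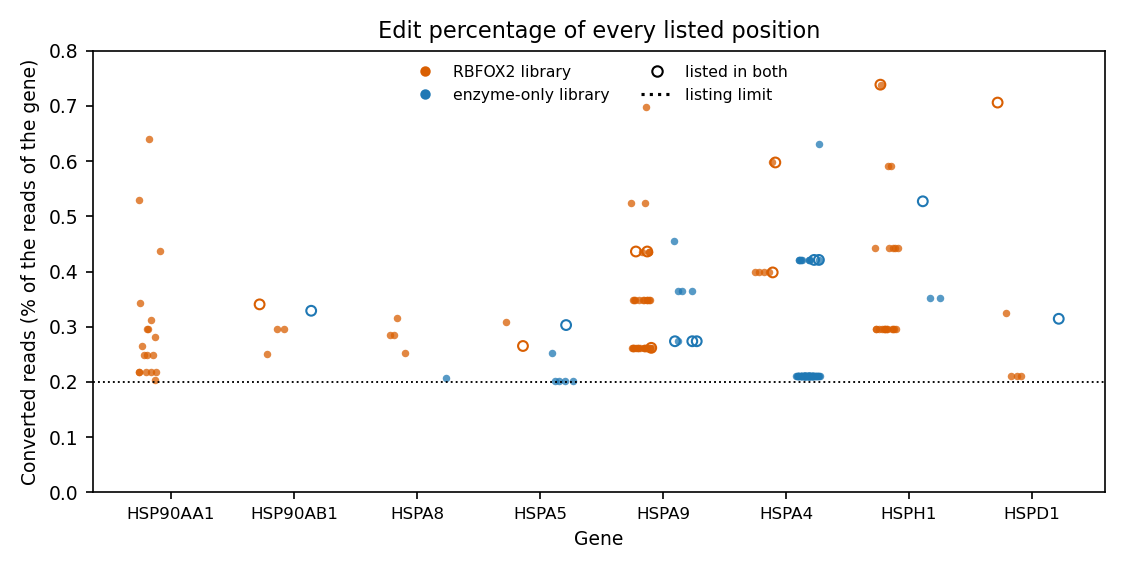
Converted reads as a percentage of the gene's reads (vertical axis) for every listed position of the 8 chaperone genes, in the RBFOX2 library (orange) and the enzyme-only library (blue), with open circles for positions listed in both and a dotted line at the 0.2% listing limit. The 18 HSP90AA1 positions lie between 0.203 and 0.640%, and the HSPA4 enzyme-only points stand in rows because each row is 1, 2 or 3 converted reads.

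Converted reads gave a second measure that uses the number of reads behind each position. Summed over the listed positions, HSPA9 had 119 converted reads per 1000 reads of the gene in the RBFOX2 library against 26.5 in the enzyme-only library. HSPH1 had 87.1 and 12.3. HSPD1 had 16.6 and 3.14, HSP90AB1 had 11.8 and 3.29, and HSPA8 had 11.4 and 2.07. These 5 members were higher in the RBFOX2 library, while HSPA4 had 31.9 against 181 and HSPA5 had 5.74 against 13.6. HSP90AA1 had 54.4 in the RBFOX2 library and no value in the other. Over the 7 members listed in both libraries the sums were 22.9 (interval 20.8 to 25.3) and 11.5 (interval 9.87 to 13.2) per 1000 reads. These intervals count each conversion as a separate read. A long read can hold conversions at several positions and is then counted more than once, so the intervals may be too narrow. The difference was not tested, and no value over all genes is given for this measure. By positions, the 890 genes of many reads also held more in the RBFOX2 library, 7934 unshared against 4722. Positions with few converted reads could be listed only in genes with few reads, so these levels are not compared between genes.

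Over the 88 unshared RBFOX2 positions, 58 lay in 3'UTRs (65.9%, interval 55.0 to 75.7%) and 30 in coding sequence. If each gene's positions were spread over its exonic cytosines in proportion, 15.7% would lie in 3'UTRs. Exonic cytosines here and below are those of all isoform models of a gene merged, which hold more than the reference coding sequence and 3'UTR. HSPD1 had 1156, of which 282 were coding and 77 in the 3'UTR. Coverage of the remainder by reads is unknown, so such proportions are a rough guide. For all RBFOX2 positions of genes with at least 500 reads the 3'UTR share was 52.0%. Of the 84 enzyme-only positions, 7 lay in 3'UTRs (8.33%, interval 3.42 to 16.4%), and 68 of these 84 were HSPA4 positions outside the 3'UTR. In proportion to the exonic cytosines 16.5% would lie there. The 3'UTR share was 39.5% for all enzyme-only positions of genes with at least 500 reads. Counted over cytosines, 58 of the 891 3'UTR cytosines of the 9 loci were listed in the RBFOX2 library (6.51%, interval 4.98 to 8.33%) and 30 of the 3748 coding cytosines (0.800%, interval 0.541 to 1.14%). The enzyme-only library listed 7 of the same 3'UTR cytosines (0.786%) and 65 coding ones (1.73%).

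The base on the 5' side was A or U at 84 of the 88 RBFOX2 positions (95.5%, interval 88.8 to 98.7%), against 49.3% in proportion to the exonic cytosines. It was A at 57 and U at 27 of them. The share over all RBFOX2 positions of genes with at least 500 reads was 87.8%. In the enzyme-only library the base was A or U at 62 of 84 positions (73.8%, interval 63.1 to 82.8%), against 47.1% in proportion to the exonic cytosines. HSPA4 held 71 of these 84. Without it the share was 84.6% of 13 enzyme-only positions (interval 54.6 to 98.1%) and 96.4% of 83 RBFOX2 positions (interval 89.8 to 99.2%). The share over all enzyme-only positions of genes with at least 500 reads was 76.7%.

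UGCAUG was searched for on the sense strand only, in 50 nt on either side of each exonic position. GCAUG, which every UGCAUG contains, was searched for in the same way. In the RBFOX2 library 7 of the 88 positions were within 50 nt of a UGCAUG (7.95%, interval 3.26 to 15.7%), against 1.49% in proportion to the exonic cytosines of the same genes and 5.73% over all genes of at least 500 reads. In the enzyme-only library 1 of the 84 was (1.19%, interval 0.03 to 6.46%), and HSPA4 held 71 of these 84. The share in proportion to the exonic cytosines was 0.292% there, and it was 1.80% over all genes of at least 500 reads. The shares of the 2 libraries thus rest on different genes. For GCAUG the RBFOX2 count was 23 of 88 (26.1%, interval 17.3 to 36.6%), against 9.44% in proportion to the exonic cytosines and 11.8% over all genes of at least 500 reads. The enzyme-only count was 2 of 84 (2.38%), against 3.70% in proportion to the exonic cytosines and 7.46% over all genes of at least 500 reads.

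The 7 positions near UGCAUG were in 2 genes. In HSP90AA1 the hexamer at chr14:102081275-102081280 had chr14:102081281 directly on its 5' side with 17 converted reads (0.265%), and chr14:102081239 and chr14:102081307 at 36 and 27 nt with 14 reads each (0.218%). In HSPA9 the hexamer at chr5:138555797-138555802 had chr5:138555806 at 4 nt with 4 reads (0.349%), chr5:138555772 at 25 nt with 6 reads, chr5:138555830 at 28 nt with 4 reads and chr5:138555851 at 49 nt with 3 reads (0.262%). The shared HSPA9 position chr5:138555839, at 37 nt, had 5 RBFOX2 reads (0.436%) and 3 enzyme-only reads (0.274%). The enzyme-only position near a UGCAUG was chr5:133070495 of HSPA4 with 1 read, and the hexamer lies 34 nt away at chr5:133070529-133070534 in the adjoining intron. The strongest HSP90AA1 and HSPD1 positions lay 8 and 7 nt from a GCAUG that is not part of a UGCAUG, as their windows above show.

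Because most edited positions of the RBFOX2 library lay in 3'UTRs, cytosines were also compared within the 3'UTRs of the 9 loci. Of the 167 cytosines within 50 nt of a GCAUG, 21 were listed in the RBFOX2 library (12.6%, interval 7.96 to 18.6%), and of the 724 farther away, 37 were (5.11%, interval 3.62 to 6.98%). Without HSP90AA1 these were 11 of 107 (10.3%, interval 5.24 to 17.7%) and 29 of 622 (4.66%, interval 3.14 to 6.63%), whose intervals overlap. For UGCAUG they were 7 of 34 (20.6%, interval 8.70 to 37.9%) and 51 of 857 (5.95%, interval 4.46 to 7.75%). Most listed 3'UTR positions were thus farther than 50 nt from either motif. In HSPH1, with no exonic UGCAUG, the group between 59 and 92 nt after the stop codon lay 297 to 330 nt from the nearest GCAUG, and HSPA5 had no GCAUG in its exons. HSP90B1 had an exonic UGCAUG and no listed position.

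The coding positions were sorted by what a C-to-U change would do in the reference transcript. In the RBFOX2 library 16 of the 30 were synonymous, 14 would change an amino acid and none would create a stop codon. In the enzyme-only library 16 of the 65 were synonymous, 44 would change an amino acid and 5 would create a stop codon. HSPA4 held 56 of these 65, of which 14 were synonymous, 38 would change an amino acid and 4 would create a stop codon. Of all possible C-to-U changes in the pooled coding sequences 38.8% are synonymous, 53.3% change an amino acid and 7.92% create a stop codon. This pool is not weighted by the positions of each gene. In HSPA4 alone 143 of 455 possible changes are synonymous, 260 change an amino acid and 52 create a stop codon. The 5 stop-creating positions were chr5:133073281, chr5:133076783, chr5:133088454 and chr5:133088538 of HSPA4 with 1 read each (0.211%), and chr13:31147989 of HSPH1 with 2 reads (0.351%).

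The study's measure editsC is the percentage of an isoform's exonic cytosines that are edited, and the study had assigned reads to isoforms. Here no read was assigned to an isoform. The unshared positions of a gene were counted over the exons of each isoform, so the values are not comparable with those of the study. Of the 355 isoforms of the members, 294 held an unshared position, and 234 of them had a higher editsC in the RBFOX2 library and 52 a lower one. Over all genes 56.7% of such isoforms were higher and 36% lower, and over genes of at least 500 reads 61.2% were higher and 30.4% lower. All 73 HSPA9 isoforms were higher, with a median of 6.40% (range 1.93 to 13%) in the RBFOX2 library against 0.800% (range 0 to 1.23%). The median HSP90AA1 isoform with a position had 4.80% (range 1.68 to 7.63%) in the RBFOX2 library, and 9 of its 35 isoforms held none. HSPH1 isoforms had a median of 2.91% (range 0.402 to 10.9%) against 0.383%, with 40 higher and 1 lower. All 33 HSPA4 isoforms were lower, with a median of 0.901% against 10.2% (range 4.50 to 13.95%), and all 18 HSPA5 isoforms were lower. All 50 HSPD1, 26 HSPA8 and 19 HSP90AB1 isoforms with an unshared position were higher. The positions were deposited per gene and not per read, so isoforms of a gene share them, are not replicates and differ in this value by construction through the exons they hold. The HSPA9 isoform with the highest value has 659 exonic nt in 4 exons and holds 13 of the RBFOX2 positions on 100 cytosines.

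**Figure D5:**
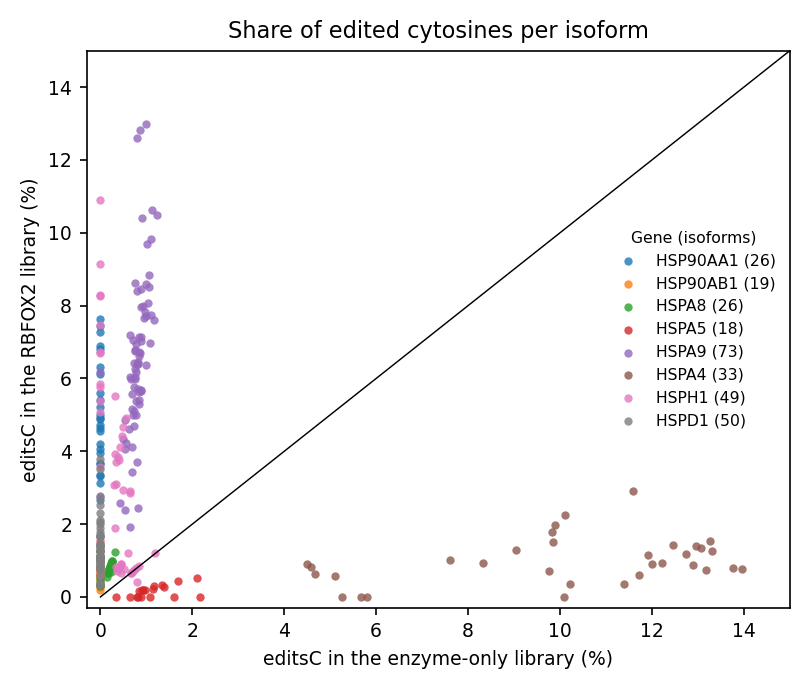
Percentage of an isoform's exonic cytosines that are unshared positions of its gene (editsC) in the RBFOX2 library (vertical axis) against the enzyme-only library (horizontal axis), 1 point per isoform with an unshared position, coloured by gene, with the line of equal values. HSPA9, HSPH1 and HSP90AA1 isoforms lie on or above the line apart from 1 lower HSPH1 isoform, HSPA4 and HSPA5 isoforms lie below it, and HSP90AA1 stands at 0 on the horizontal axis because the enzyme-only library does not list the gene.

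Chaperones of one family share sequence, so positions were compared between paralogs. HSP90AA1 and HSP90AB1 share 86.7% of aligned residues, HSPA8 and HSPA5 65.9%, and HSPA4 and HSPH1 65.2%. No coding position in either library fell on the aligned base of the paralog, and neither HSP90AA1 nor HSP90AB1 had a coding position. HSPA8 and HSPA5 had 3 and 1 coding positions in the RBFOX2 library and 1 and 4 in the enzyme-only library. HSPA4 and HSPH1 had 6 and 6, and 58 and 2. With so few positions over 627 and 837 aligned codons, the 0 cannot tell whether reads were placed on the wrong copy. GENCODE annotates 76 pseudogenes of the 10 members, and no locus was assigned to any of them, so whether reads of such copies were placed on the parent genes could not be read from these tables.

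The wider chaperone machinery was described with a list of 54 genes that holds J-domain proteins, HSP90 co-chaperones, nucleotide exchange factors, endoplasmic reticulum folding enzymes and the heat shock factors. Positions were listed for 49, and 25 had at least 20 unshared ones. Of these, 5 were over 1 and 3 under -1, beside the 16.8% and 14.6% over all such genes, and the median of 0.25 compared with 0.08 over the 3604 genes. The highest were DNAJB6, a J-domain protein that suppresses aggregation, with 32 positions against 4 (2.59, interval 1.24 to 4.70), and AHSA1, which speeds the HSP90 ATPase, with 40 against 7 (2.17, interval 1.08 to 3.65). DNAJA1, a J-domain partner of HSPA8, had 21 against 6 (1.46), BAG3, a nucleotide exchange factor, 26 against 8 (1.38), and the small heat shock protein HSPB1 17 against 6 (1.17, interval -0.17 to 2.87). The lowest was UNC45A, an HSP90 co-chaperone for myosin, with 4 against 33 (-3.16). Like HSPA4 it stood on both sides of 500 reads, with 557 and 473, and at the common minimum it had 4 against 0. DNAJC2, a ribosome-associated J-domain protein, had 8 against 20 (-1.53, interval -2.98 to -0.34), and HSPA13, an HSP70-like protein, had 9 against 17 (-1.14, interval -2.53 to 0.07).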

How the data were processed

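The authors deposited 1 table of C-to-U edits per library (hg38) and 1 annotation of long-read isoforms. Raw counts were deposited for each position, of its converted reads and of all reads assigned to the gene. The authors divided the former by the latter to obtain the deposited edit fraction, which is relative to the gene and not to the position. A deposited confidence fraction was read but used in no comparison. The deposited files carry PacBio locus identifiers, and the labels name an Iso-Seq kit. The methods of the study name pbmm2 for alignment, IsoQuant for isoforms and the authors' own code for edits, but with a Kinnex kit, so whether they apply to these tables is unsure. Removal of known variants was not repeated. Each of the 225614 listed positions was checked to be a C in hg38. Only positions above an edit fraction of 0.002 were listed.

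Groups were taken from the sample labels, with 1 library each, so no p-value was computed. Loci were assigned to GENCODE 44 genes, and positions to regions of all protein-coding transcripts of the gene, coding sequence first. For the members the MANE Select transcript gave the same region totals. Codon changes, distances after the stop codon and the numbers of coding and 3'UTR cytosines used the MANE Select transcript. Shared positions were left out of ratios and shares, and converted-read sums kept them. Log2 ratios used a pseudocount of 0.5 and were scaled by the 109357 and 91111 unshared positions. Intervals were exact binomial (95%). Gene reads summed to 2431345 and 2233600. The ratio code was tested on simulated counts. Python 3.11.15, numpy 2.4.6, pandas 2.3.3, scipy 1.17.1, pysam 0.24.0, Biopython 1.88 and matplotlib 3.10.9 were used.

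Named positions were, per gene and library, the 3 with the most converted reads (ties by position), those within 50 nt of a UGCAUG, those that create a stop codon and those in both libraries with an edit fraction over 1%. Other positions printed (shared positions under 1%, the HSP90AA1 position with 22 reads and neighbouring pairs) were chosen after their values were seen. Co-chaperones were named by ratio, up to 5 in each direction. Members, lists and rules were chosen with earlier results of these data known. Alternatives were a common listing minimum, at least 2 converted reads, shared positions kept or left out, other motif windows, 3'UTR first, 1 isoform per gene and a pseudocount of 1.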

Additional observations from a re-analysis of the deposited data

How the results depend on the processing

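Of 120 recomputed values 91 stayed within the limits set, 29 moved and 0 reversed. Of the 32 recomputed ratios of single members 30 stayed within these limits. Those of HSPA4 moved to -1.28 at the common minimum and -1.80 with at least 2 converted reads. Ratios within the limits could still change much. HSPA5 went from -2.14 to -0.35 at the common minimum, no longer under -1. HSPA8 went from 1.32 to 2.82 there and to 0.72, no longer over 1, with at least 2 converted reads. The enzyme-only library changed most. At the common minimum its unshared positions went from 84 to 18, members under -1 from 2 to 1, converted reads per 1000 from 11.5 to 6.29, the UGCAUG share from 1.19 to 0%, the 3'UTR share from 8.33 to 22.2%, and isoforms lower in the RBFOX2 library from 52 to 30. With at least 2 converted reads these were 23 positions, 7.66 per 1000 reads, 0% and 21.7%, and the co-chaperones over 1 and under -1 went from 5 and 3 to 2 and 0. Without HSPA4, an alternative chosen after seeing the data, the enzyme-only library had 13 positions, a UGCAUG share of 0%, an A or U share of 84.6% and a 3'UTR share of 30.8%. With shared positions left out, converted reads per 1000 were 18.3 and 8.28. Members with at least 20 positions were 2 over 1 and 1 under -1. The UGCAUG share of the RBFOX2 and enzyme-only libraries was 2.27 and 0% in a window of 20 nt, where 0.653 and 0.0453% were in proportion to the exonic cytosines. In a window of 200 nt it was 26.1 and 11.9%, where 6.80 and 4.29% were in proportion. The RBFOX2 share for GCAUG was 26.1%. With 1 isoform per gene, 6 were higher and 2 lower. No paired analysis was possible because each group held a single library, and none could be left out for the same reason.

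Depth limited the weaker positions, since the interval reached below the listing limit at all but 6 of the 88 RBFOX2 positions and at all 84 enzyme-only ones, and a gene whose reads differ by a few between the libraries can gain or lose all positions at 1 converted read. The reads over a position are not given, so a percentage understates editing where reads end before it. The enzyme-only depth of HSP90AA1 and both depths of HSP90B1 are unknown.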

Other observations

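HSPE1, the co-chaperonin that caps HSPD1, shares its locus (chromosome 2, plus strand, hg38 197499995-197552608) with MOB4. The isoforms overlap 2658 exonic bases of MOB4 and 1510 of HSPE1, and the locus had 707 reads in the RBFOX2 library against 732 in the enzyme-only one. Within HSPE1 the RBFOX2 library listed 3 positions and the enzyme-only library 6, with 2 in both. The HSPE1 5'UTR position chr2:197500402 had 249 converted reads in the RBFOX2 library (35.2%, interval 31.7 to 38.9%) and 257 in the enzyme-only library (35.1%, interval 31.6 to 38.7%), while every other listed position of the locus had at most 3 converted reads.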
